A study of Mus musculus with 8 samples.

Results

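The genes of the circadian clock and its direct outputs were described by their ribosome footprints in mouse liver. They were chosen by gene symbol, and all 10 that were looked for (Per1, Gm129, Arntl, Bhlhe40, Bhlhe41, Usp2, Dbp, Tef, Cry1 and Clock) had a row among the 7500 genes of the deposited table. Livers came from wild-type male FVB/N mice. The Se-deficient group (0 Se, 2 mice, 4 libraries) received a torula yeast diet with 0 ppm sodium selenite, and the Se-adequate group (0.1 Se, 2 mice, 4 libraries) received the same diet with 0.1 ppm, each for 6 weeks from weaning. The table holds 1 abundance value per gene, taken here as the authors' average over the libraries of both diets because its column names no sample. It holds no value for a single mouse or a single diet apart from the authors' own comparison of the diets, whose fold changes and p-values were not used here. The account below therefore covers the footprint level of each clock gene in these livers and the coding sequence on which it was counted. It also covers the regulatory motifs in each promoter and contains no comparison between the diets. No level of messenger RNA was set beside the footprints, so a footprint level is not a measure of translation per messenger RNA.

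The mammalian clock is a feedback loop of transcription. CLOCK and BMAL1, the product of Arntl, bind as a pair to a DNA element known as the E-box and switch on the Per and Cry genes, whose products return to the nucleus and block the pair. In liver the loop drives output factors such as DBP and TEF, which bind a second element, the D-box, in genes of metabolism and detoxification, and the messenger RNA of most clock genes rises and falls over the day. The hour at which the livers were taken is not given in the sources used here, so the levels below belong to an unknown phase of that cycle.

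The promoter sequences are shown first, since the E-box recurs in several of them. RefSeq promoter windows on the GRCm38.p6 build, which run from 250 bases before to 50 bases after a start of transcription, were found for 9 of the 10 genes, in 14 windows. None was found for Bhlhe40. Gm129 was matched through its current symbol, Ciart. The perfect E-box, CACGTG, which reads the same on both strands, lay in the windows of 5 of the 9 genes. Across all 32851 windows it lay in 7.15%, and of the 5658 genes that had both a row in the table and a window, 12.6% held it. The stretches of 30 bases around every E-box of these genes are printed below, 5′ to 3′ on the strand of the gene, with the E-box in capitals.
Gm129, distal: tgcatctagagtCACGTGttgccggtaagc
Gm129, proximal pair: ggaggCACGTGcagaaccgCACGTGtctgg
Per1: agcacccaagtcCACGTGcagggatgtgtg
Cry1: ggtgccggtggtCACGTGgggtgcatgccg
Bhlhe41: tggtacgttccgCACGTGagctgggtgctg
Tef, first window: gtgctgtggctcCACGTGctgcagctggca
Tef, second window: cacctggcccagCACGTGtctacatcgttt

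Gm129, which encodes a repressor that binds BMAL1, held 3 E-boxes in its single window, on the minus strand of chromosome 3. Their first bases lay 116, 58 and 44 bases before the start of transcription. The printed stretches are chr3:95882327-95882356 for the distal site and chr3:95882262-95882291 for the proximal pair, in which 8 bases separate the E-boxes. Such a number is uncommon in windows of this length, as 29 of the 32851 windows, or 0.0883%, held 3 or more.

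Each of the other E-boxes stood alone in its window. In Per1, a core inhibitor of the loop, the E-box began 166 bases before the first of its 2 annotated starts (chr11:69098771-69098800, plus strand), and the window of the other start held none. In Cry1, the partner of the PER proteins, it began 60 bases before the start (chr10:85185097-85185126, minus strand). Bhlhe41, which encodes a repressor that itself binds E-boxes, had one at 153 bases (chr6:145865556-145865585, minus strand). Tef has 2 annotated starts and was the only one of these genes with an E-box at each, at 127 bases before the first (chr15:81802534-81802563, plus strand) and 138 bases before the second (chr15:81811264-81811293, plus strand). All 7 stretches lay before the start of transcription. The windows of Arntl, Clock, Dbp and Usp2 held no CACGTG, which says only that these letters are not within these bases.

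**Figure D1:**
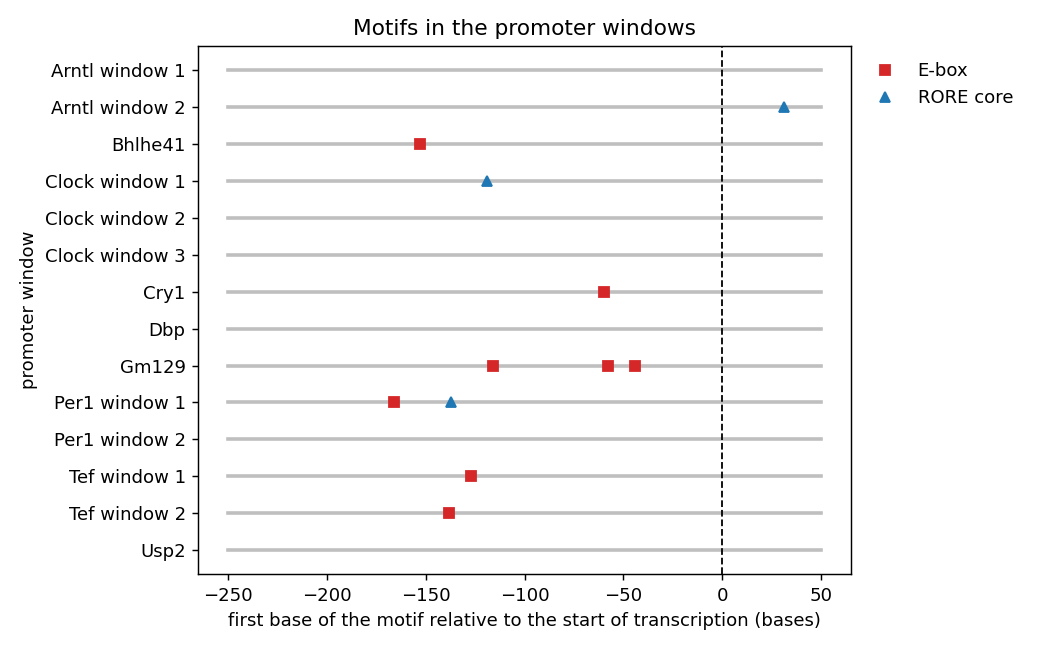
Each horizontal line is 1 promoter window, from 250 bases before to 50 bases after the start of transcription (dashed line, position 0), and the x axis gives the first base of a motif in bases from that start. Red squares are E-boxes (CACGTG) and blue triangles are RORE cores (AGGTCA); 5 of the 9 genes have an E-box, and Gm129 has 3.

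The D-box, TTATGTAA on either strand, was found in none of the 9 genes. Among all 27025 genes with a window, 1.11% held it. The looser form TTATGNAA, which includes the strict one, was found in 1 gene, Per1, 24 bases before its first start, and in 3.99% of all genes with a window. The core of the element bound by ROR and REV-ERB receptors, AGGTCA on either strand, lay in windows of 3 genes, Arntl, Clock and Per1. It occurred in 1 window of each, or 3 of the 14 windows of the 9 genes, against 16.3% of windows and 18.1% of genes over the whole set. The 13 other clock genes for which a window was found were searched in the same way. None of the 13 held CACGTG. The related CACGTT, on either strand, lay in 3 of the 13 (Cry2, Nr1d1 and Rorb), in 1 of the 9 genes described here (Cry1, 79 bases before the start) and in 5.44% of all genes with a window. The difference between the lists was not tested.

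The footprint levels come next. CPM stands for mapped footprints scaled to a common library size, and since a long coding sequence collects more footprints than a short one, genes were set side by side as CPM per kilobase of counted coding sequence, on the log2 scale, named the level per length. With 1 pooled value per gene there is no spread between mice for any of these levels. The number of footprints behind each value is unknown, and whether neighbours in an order differ beyond their error could not be judged. The 10 genes spanned a level per length of 0.35 to 6.75 with a median of 3.35, and the median of all 7500 genes was 3.50, with quartiles at 1.93 and 5.23. Of the 10, 4 lay at or above that median and 6 below it. The split turned when genes under 600 counted bases, Bhlhe41 among them, were left out, with 5 of the remaining 9 at or above the median and 4 below.

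**Figure D2:**
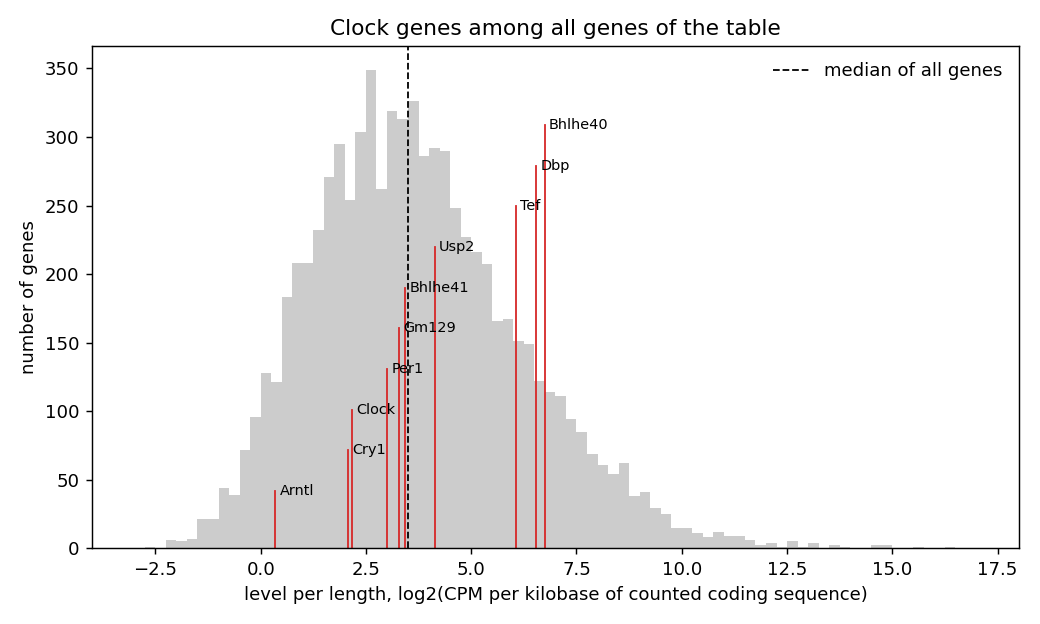
The x axis is the level per length, log2(CPM per kilobase), and the grey bars count the 7500 genes of the table in steps of 0.25. Red lines mark the 10 clock and output genes (their heights only make room for the names) and the dashed line is the median of all genes at 3.50; Bhlhe40, Dbp and Tef stand to the right and Arntl to the far left.

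The footprint levels of both activators lay below the median of all genes. Arntl (chromosome 7, 120350979 to 120457636, plus strand, mm9) encodes BMAL1 and had the lowest level of the 10 genes, 1.22 log2 CPM or 2.32 CPM. Per length this was 0.35, and 6.51% of the 7500 genes of the table were at or below it. Its partner Clock (chromosome 5, 76639992 to 76733817, minus strand) was at 3.51 log2 CPM or 11.4 CPM. Its level per length was 2.18, at percentile 28.5. CLOCK and BMAL1 act as a pair, and per length the level of Clock was 3.55-fold that of Arntl, a log2 difference of 1.83. An average log2 CPM from edgeR includes a small added count, so the level of a gene as low as Arntl is if anything overstated.

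The inhibitors Per1, Cry1 and Gm129 lay below or close to the middle of the table. This did not hold for every inhibitor, as Cry2, from outside the 10 genes, was at percentile 60.1 per length. Per1 (chromosome 11, 68908719 to 68923462, plus strand) was at 4.94 log2 CPM or 30.6 CPM, spread over the longest counted sequence of the 10, 3816 bases. By log2 CPM alone it stood at percentile 68.5, and per length it was at 3.0 and percentile 41.8. Cry1 (chromosome 10, 84594447 to 84647799, minus strand) was at 2.89 log2 CPM, with a level per length of 2.08 at percentile 27.1. Cry1 and Clock stood next to each other in the order and differed by 0.10 in level per length. Gm129 (chromosome 3, 95682426 to 95686174, minus strand) was at 3.37 log2 CPM or 10.3 CPM, with a level per length of 3.28 at percentile 46.4. Although Per1 had the higher log2 CPM by 1.57, Gm129 was higher by 0.27 per length, so their order turned with the scale.

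Bhlhe40 and Bhlhe41 encode related repressors of E-box genes, known as DEC1 and DEC2. They were far apart in footprint level. Bhlhe40 (chromosome 6, 108610623 to 108616919, plus strand) was the highest of the 10 genes at 6.98 log2 CPM or 127 CPM, and its level per length of 6.75 stood at percentile 88.1. Bhlhe41 (chromosome 6, 145806763 to 145814078, minus strand) was at 1.86 log2 CPM or 3.63 CPM, which is percentile 16.3, but its level per length was 3.43, at percentile 49.0. The difference between the pair was 5.13 in log2 CPM and 3.32 per length, or 9.97-fold per length.

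The gap between both scales in Bhlhe41 comes from the sequence on which it was counted. The length deposited for it is 336 bases, the shortest of the 10, against 1176 for Bhlhe40. For 7093 of the 7260 genes whose symbols were found in the GENCODE vM1 annotation of the same build, or 97.7%, the deposited length was exactly 60 bases less than an annotated coding sequence. For Bhlhe41 this gives a coding sequence of 396 bases and 131 sense codons, the length of the short one of its 2 annotated forms and 32.1% of the long one, which has 1233 bases and 410 sense codons. The first 346 bases and 4 coding exons are the same in both. The forms part in the fifth coding exon, which lies at 145812341 to 145812387 in the short form and at 145811375 to 145812258 in the long one (chromosome 6, mm9, stop codon left out). The point where they part is shown with 12 shared bases in lower case and the first 18 bases of each form's own exon in capitals, from the GENCODE coding transcripts.
Bhlhe41, short form: ctttacagaatgTCTGCGGATTATATCGCT
Bhlhe41, long form: ctttacagaatgGGGAGCGCTCTCTGAAAT

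Footprints on the remaining 887 bases of the long form have no place in a sequence of this length. If the short form was the one counted, the deposited level of Bhlhe41 covers the common start of the protein, where the basic helix-loop-helix domain lies, and the short form's own end. The form was inferred from the length alone. For the other 9 genes a coding sequence of the fitting length was also found. It was the longest annotated one for Per1, Gm129, Bhlhe40, Usp2, Dbp, Tef and Cry1. For Arntl it had 1881 bases against 1902 in the longest form, and for Clock 2568 against 2574.

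**Figure D3:**
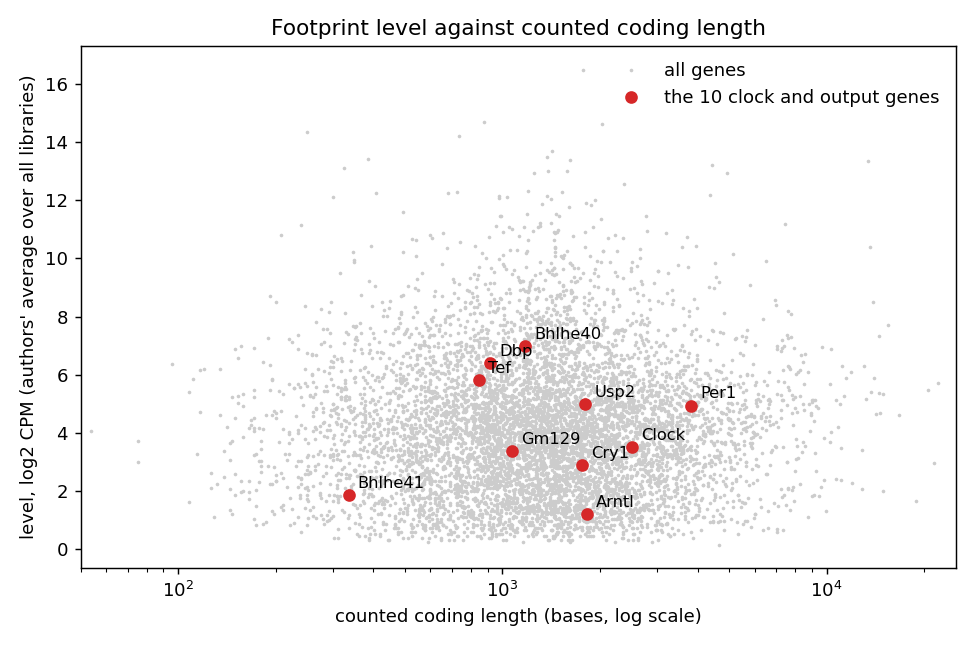
The x axis is the counted coding length in bases on a log scale. The y axis is the authors' log2 CPM, taken as an average over all libraries. Grey points are the 7500 genes and red points the 10 clock and output genes; Bhlhe41 sits at the short end with 336 bases and Per1 at the long end with 3816.

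The output factors Dbp and Tef stood next to Bhlhe40 at the top of the order. Dbp (chromosome 7, 52960458 to 52965525, plus strand), a D-box activator that is among the most rhythmic transcripts of liver, was at 6.41 log2 CPM or 85.2 CPM. Its level per length was 6.54, at percentile 86.7, and differed from that of Bhlhe40 by 0.22. Tef (chromosome 15, 81632851 to 81657291, plus strand), of the same family, was at 5.83 log2 CPM or 56.7 CPM, with a level per length of 6.07 at percentile 83.1. Per length Dbp was 1.38-fold above Tef. Usp2 (chromosome 9, 43875104 to 43903708, plus strand), a deubiquitinating enzyme with rhythmic expression, followed at a distance with 4.98 log2 CPM or 31.7 CPM. Its level per length was 4.14, at percentile 60.5, which was 1.93 below Tef.

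The full order per length was thus Bhlhe40, Dbp, Tef, Usp2, Bhlhe41, Gm129, Per1, Clock, Cry1 and Arntl. From the first to the last the difference was 6.40 on the log2 scale, or 84.4-fold. Bhlhe41 and Gm129 differed by 0.16, and with the full coding sequence as the length they were equal to within rounding, so their order is not determined. Together the 10 genes took 366 CPM.

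A list of 18 other clock genes gives the setting. Of these, 10 had a row, and the other 8 had none, so no level is given for them. The 10 spanned a level per length of 1.08 to 5.60 with a median of 4.22, and 6 of them lay at or above the median of all genes. The extremes of the combined order of 20 genes belonged to the genes described above, which filled the first 3 places and the last. The nuclear receptors of the second loop, which act on Arntl through the RORE, were well above Arntl itself. Nr1d1, which encodes the repressor REV-ERB alpha, was at 5.56 per length, 37.0-fold Arntl, Nr1d2 was at 4.37 and the activator gene Rora at 4.31.

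Within families the levels were uneven. Per3 was at 2.05 per length, below Per1 by 0.95. Cry2, at 4.12, was 4.13-fold above Cry1. Nfil3, the repressor that competes with DBP and TEF for the D-box, was at 3.22, and Dbp exceeded it 9.93-fold. The kinase genes that mark PER proteins for breakdown were at 5.60 per length for Csnk1d and 1.08 for Csnk1e, while Btrc, whose product carries out the next step, was at 3.33. Ccrn4l, the deadenylase-related gene nocturnin, was at 4.37. These differences are of pooled averages, without an error.

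**Figure D4:**
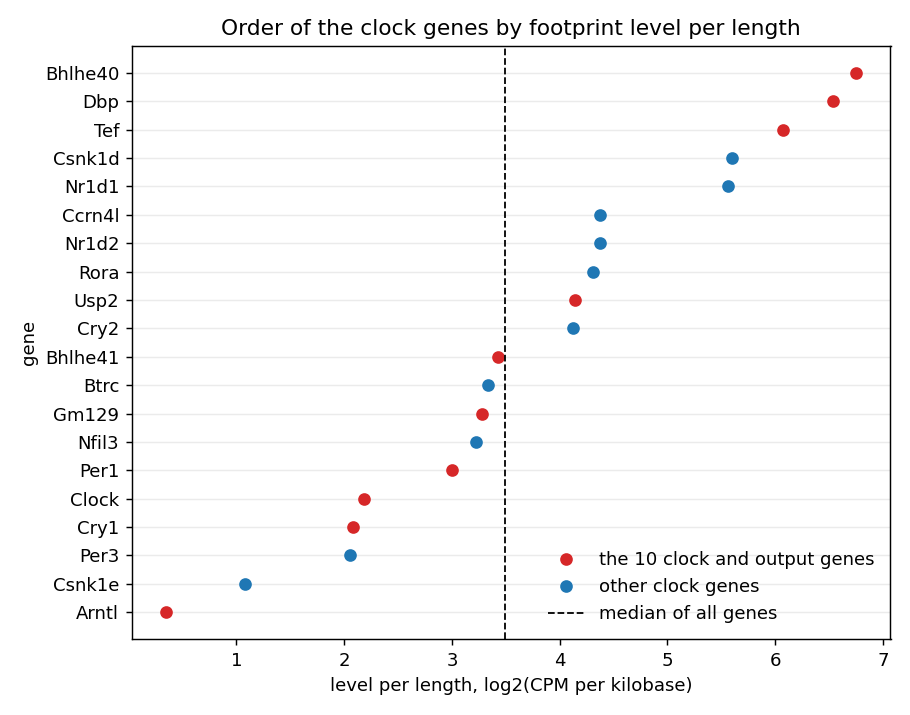
The x axis is the level per length, log2(CPM per kilobase), and each row is 1 gene in order of that level; there are no error bars because each gene has 1 pooled value. Red points are the 10 clock and output genes, blue points the 10 other clock genes with a row, and the dashed line is the median of all genes; Bhlhe40, Dbp and Tef lead and Arntl is last.

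Sequence shared with other genes was looked for, since the authors kept uniquely aligned reads. Of the 30-base windows along the coding sequence of each of the 10 genes, 0% occurred without mismatch in another gene's protein-coding transcript. Transcripts without a coding sequence were not searched. Copies with mismatches, which the alignment allowed, were not examined. The GC content of these coding sequences ran from 42.2% in the short form of Bhlhe41 and 44.6% in Clock to 60.4% in Per1 and 65.8% in Dbp. Over the 7093 matched genes the median was 52.5%. The tissue label was met by those hepatocyte markers that had a row, 6 of 8 listed. Their levels per length were 7.60 to 15.66, the highest in Alb, and each stood above Bhlhe40. Tf and Cps1, also on the hepatocyte list, had no row, and the reason was not tested. Genes of other liver cells were present as well. Of 8 Kupffer cell genes 7 had a row, from 2.30 to 7.42, the 5 endothelial genes lay between 2.27 and 4.82, all 6 stellate cell genes between 1.34 and 3.77 and 4 of 5 bile duct genes between 0.33 and 5.62. Of 5 blood genes only Ptprc had a row, at 1.63. The globin genes Hba-a1, Hba-a2, Hbb-b1 and Hbb-b2 had none, so the amount of blood in the livers could not be judged from them. How much of each clock gene's level came from which cells was not tested.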

How the data were processed

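Ribosome footprints of 100 mg of liver were sequenced from 4 mice in 8 libraries. According to the study's methods the authors removed ribosomal RNA reads with Bowtie. They aligned the rest uniquely to the longest RefSeq isoform of each gene (mm9), with the first 15 codons and the last 3 left uncounted. The deposited lengths differ from this, as 97.7% of matched genes were 60 bases, or 20 codons, below an annotated coding sequence. The reason was not tested. The deposited log2 CPM is the authors' average over all libraries from edgeR, and the deposited length is in bases. No source used here gives a version of these tools. The other 4 columns hold the authors' comparison of 0.1 Se with 0 Se (log2 fold change, linear fold change, p-value and adjusted p-value). They were not used, so the planned test of the diets, which needed counts per library, was not run, and the depth per library is unknown.

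Level per length was log2 CPM less the log2 of the length in kilobases, and a percentile is the share of all genes at or below a value (Python 3.11.15, pandas 2.3.3, numpy 2.4.6). Gene positions and coding sequences came from GENCODE vM1 (mm9), and promoter windows from RefSeq (GRCm38.p6), whose coordinates are not those of mm9. The motif search and the percentile calculation were run on simulated data with a known answer, which checks the code and not the results. All 10 genes are named. The genes and lists were chosen with earlier results of these data known.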

Additional observations from a re-analysis of the deposited data

How the results depend on the processing

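Of 51 alternatives to the values above, 48 left the value within 0.5 on the log2 scale, 5 percentile points or a ratio of 1.5 for counts. The exceptions were the D-box, found in 1 gene with TTATGNAA in place of 0, and the percentiles of Gm129 and Usp2, which became 51.5 and 65.7 when genes under 600 counted bases were left out. Bhlhe41 falls under that limit itself and has no percentile there. With the same limit, added for this count after seeing the data, 5 of the remaining 9 genes lay at or above the median. Subtracting 18 codons from the length, as planned, raised the median level of the 10 genes to 3.52 and put 5 of them at or above the median of all genes. The deposited length already leaves out 20 codons, so the full coding sequence was added as an alternative after seeing the data. It gave a median of 3.20, and 8 of 10 genes kept their place in the order. Without division by length, 5 genes lay at or above the median. The alternatives on the diet comparison (DESeq2, no count filter, each mouse left out) could not be run without counts per library. No paired analysis was possible because no mouse number occurs in both diets and each gene has 1 pooled value.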

Other observations

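Bhlhe41 was not the only gene whose deposited length fitted a shorter annotated form, a match made by length alone. Of the 7093 genes whose deposited length matched an annotated coding sequence, 977, or 13.8%, matched one shorter than the longest in GENCODE vM1, and for 18 genes, or 0.254%, it was under 50% of the longest. Beside Bhlhe41 these included Ank2, with 3153 of 11802 bases, Mprip, with 3075 of 6810, and Il15ra, with 372 of 792, named after their values were seen. Over all genes with a row and a promoter window under the same symbol, the median level per length was 3.65 for 714 genes with an E-box and 3.49 for 4942 without, and among the clock genes it was 3.28 for the 5 with and 3.16 for the 4 without.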
